A study of Mus musculus with 21 samples.

Results

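The 9 genes described here encode transcription factors of neural progenitors, namely the SoxB1 factors *Sox1*, *Sox2* and *Sox3*, the patterning factors *Pax6*, *Pax3*, *Irx3*, *Nkx6-1* and *Olig2*, and the proneural factor *Neurog2*. They were chosen by gene symbol, and all 9 were found in an FPKM table of 23983 genes (FPKM, a fragment count scaled by transcript length and by library size). The table has 9 RNA-seq columns, and the 9 genes thus gave 81 values, of which 33 were at 1 FPKM or more and 22 were listed at 0.

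The series asked how notochord enhancers are organised in the mouse, and compared notochord progenitors (NotoPs), mesoderm progenitors (MPs) and trunk notochord with cells differentiated in culture from mouse embryonic stem cells (mESCs). Of its 21 samples, the 9 RNA-seq libraries and the T and Foxa2 ChIP-seq libraries were used, and the other 10 were not analysed here. All cells derive from F1G4 mESCs, a hybrid line labelled C57BL/6N x SV129. Every condition has 1 library, so no spread between replicates, SD or p-value can be given and each difference describes these libraries.

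The embryonic cells carried 3 bacterial artificial chromosome (BAC) reporters, T::H2B-Venus, Noto::H2B-mCherry and Foxa2::H2B-mTurquoise, in embryos that GEO's labels give as made by tetraploid complementation and the study's text as made by morula aggregation, and embryos were pooled for sorting. NotoPs were Noto+/T+/Foxa2+ cells of the caudal end, MPs were T+/Noto-/Foxa2- cells of the caudal end, and trunk notochord cells were T+/Noto+/Foxa2+ cells of the trunk, each from embryos of E8.5 (Theiler stage 12) or E9.5 (Theiler stage 16). The cultured cells carried TRE::Foxa2-IRES-EGFP at the Rosa26 locus together with the BACs T::H2B-mCherry-T2A-irTA and Noto::H2B-mTurquoise, so that doxycycline (Dox) switches Foxa2 on in cells that express T. Cultures received 10 ng/ml bFGF until day 3 and the Wnt pathway activator CHIR. NMPdiff cells (neuromesodermal progenitors, NMPs) were T+/Noto- cells after CHIR from day 2 to day 3 at 5 µM. MPdiff cells were T+/Noto- cells after CHIR from day 2 to day 4, and NotoPdiff cells were Noto+/T+ cells after CHIR and 1 ng/ml Dox over the same days. Every sort gate required the T reporter, a histone fusion that can outlast T expression in a cell.

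NMPs of the caudal embryo are known to hold T and *Sox2* together and to give rise both to paraxial mesoderm and to the spinal cord. Cells that take the neural path keep SoxB1 factors, which keep cells in a progenitor state, and then acquire factors that divide the neural tube from dorsal to ventral: *Pax3* dorsally, *Pax6* and *Irx3* in between, and *Nkx6-1* and *Olig2* ventrally, in answer to *Shh* from notochord and floor plate. Proneural factors such as *Neurog2* drive progenitors to become neurons. Several of these genes also have roles outside the neural tube. *Sox2* is a pluripotency factor, *Pax3* is active in somites and in the mesoderm that precedes them, and *Sox2* and *Irx3* are not restricted to neural tissue.

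Embryonic and cultured libraries were sequenced on different Illumina instruments, so ratios were formed only within the embryo or within culture. By the study's sample list, trunk notochord libraries came from fewer cells, fewer mapped reads and a wider span of somite stages than NotoP libraries of the same stage label. The embryonic libraries list between 10719 and 13945 genes at 0, the most in E8.5 MPs, which the study's sample list gives as the library made from the fewest cells; the cultured libraries list 7573 to 8246. Of 15 housekeeping genes, all were above 0 in 8 libraries, but *Pmm2* was at 0 in E8.5 MPs, so a 0 says only that a gene is listed at 0. In bulk libraries fewer cells of a type and less RNA per cell cannot be told apart. All 12 of 12 notochord genes, such as *Noto*, *Shh* and *Chrd*, exceeded 3-fold in NotoPs over MPs, at E8.5 as well as at E9.5. Among all genes, 8.83% did so at E8.5 and 2.63% at E9.5. However, 3 of the 12 (T, *Noto* and Foxa2) were also the sorting reporters. The list was chosen with earlier results of these data known, and the study selected its notochord genes by this same ratio. The count is therefore no independent check of the labels. Genes of blood and endothelium, as a check for other cells, summed to between 0 and 0.952 FPKM over 11 genes in the embryonic libraries and to between 0.769 and 4.35 FPKM in the cultured ones, the latter mostly *Kdr* in MPdiff cells (3.22 FPKM).

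The 9 genes differed widely in level. *Irx3* was the highest of the 9 in 5 of the 6 embryonic libraries, *Pax3* was the highest in E9.5 MPs, *Olig2* in NMPdiff, and *Sox2* in NotoPdiff and MPdiff cells. Summed over the 9 genes, the E8.5 and E9.5 totals were 114 and 71.5 FPKM for trunk notochord, 40.8 and 31.4 FPKM for NotoPs, and 18.0 and 13.1 FPKM for MPs. The cultured libraries held 12.1 FPKM in NMPdiff, 13.5 FPKM in NotoPdiff and 9.24 FPKM in MPdiff cells. Between 2 and 6 of the 9 genes were at 1 FPKM or more, with 6 in E8.5 trunk notochord, 2 in E9.5 NotoPs and in NotoPdiff cells, 3 in E9.5 MPs and 4 in the other 5 libraries. Of all genes, 45.9% were at 1 FPKM or more in NotoPs of E8.5 and 46.7% in those of E9.5, 47.7% and 45.6% in trunk notochord, 39.7% and 44.6% in MPs, 48% in NMPdiff, 49.5% in NotoPdiff and 47% in MPdiff cells.

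**Figure D1:**
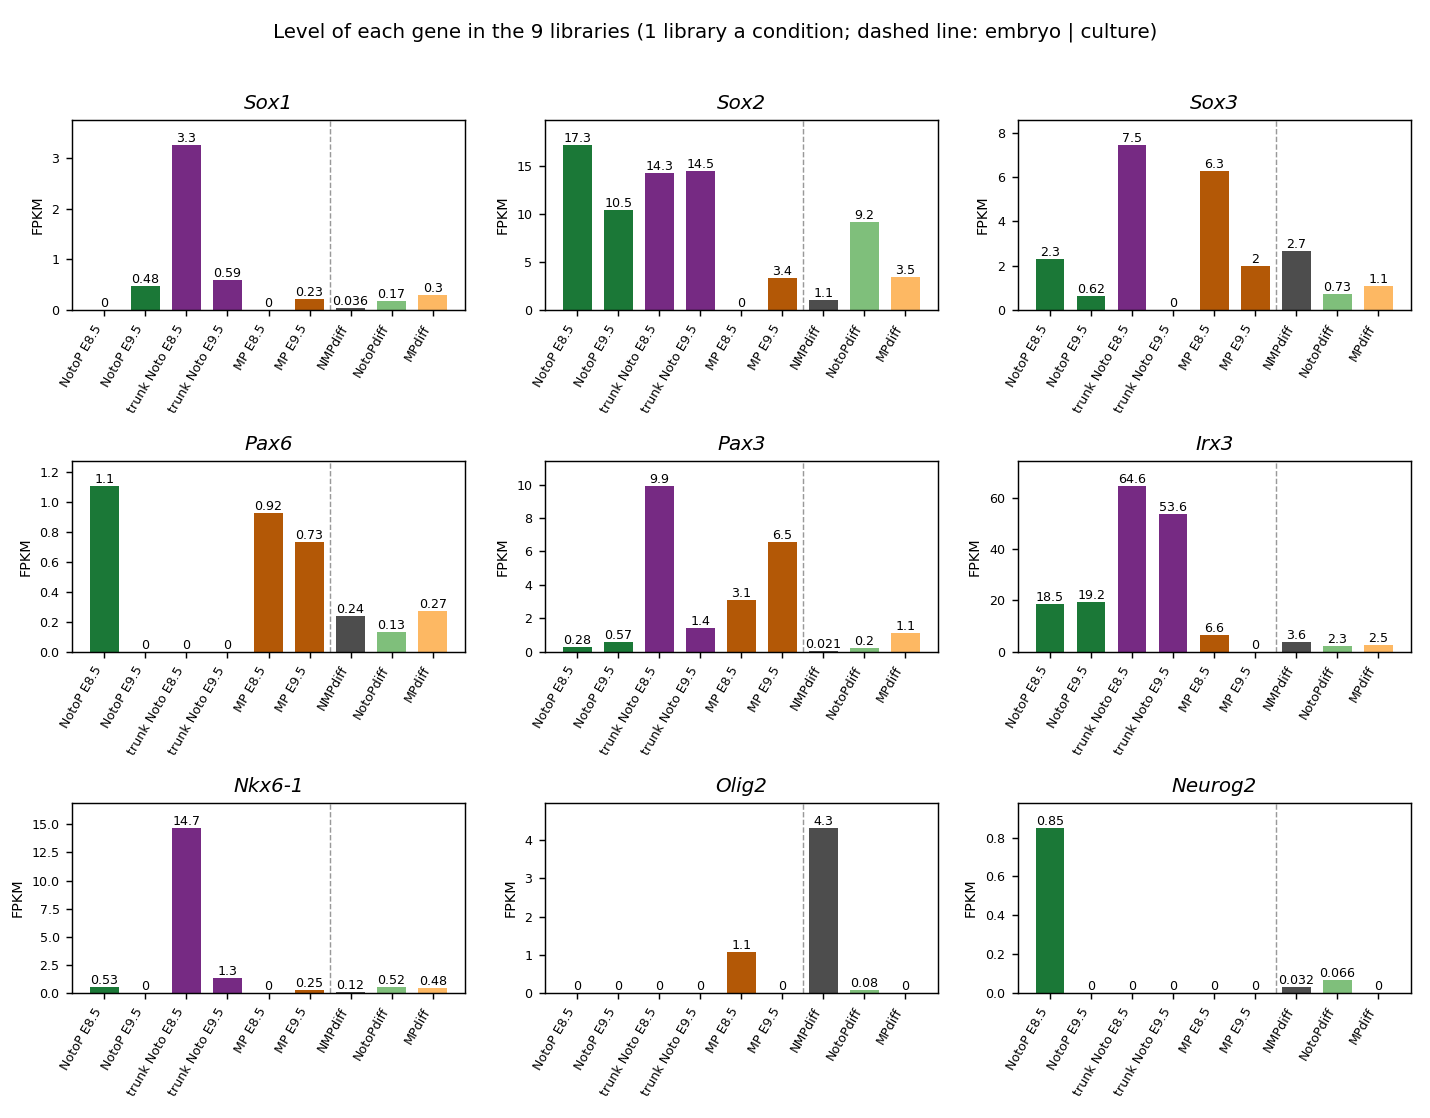
Bars give FPKM (vertical axis, each panel with its own scale from 0) of each of the 9 genes in the 9 libraries (horizontal axis; green NotoP, purple trunk notochord, brown MP, grey NMPdiff, light green NotoPdiff, light brown MPdiff), with the value on each bar and the dashed line between embryo and culture. Irx3 reaches 64.6 and 53.6 FPKM in trunk notochord, Nkx6-1 14.7 FPKM in E8.5 trunk notochord, and Olig2 4.32 FPKM in NMPdiff cells; there is 1 library a condition and no error bar.

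For binding near these genes, T and Foxa2 ChIP-seq peaks were used, called by the authors in 1 library each from bulk cultures enriched for NotoPdiff cells. T is the T-box factor of mesoderm and notochord and Foxa2 a forkhead factor of notochord, floor plate and endoderm. Windows of 300 bases around peak summits were searched on both strands for the T-box site AGGTGTGA and for its core, GGTGTG, which lies within it. The forkhead motif was searched in 3 spellings, of which the first was TGTTTAC. The second spelling was TGTTTGC, and the last spelling searched was TATTTAC. The T-box site was present in 4.82% of 6871 T peak windows, the core in 26.9% and the forkhead letters in 35.9%. For 22678 Foxa2 windows the shares were 1.40%, 26.8% and 42.4%. At positions 10 kb from the summits the shares were 1.37%, 18.0% and 14.3% for T and 1.32%, 17.6% and 15.4% for Foxa2, so the core was almost as common at Foxa2 as at T summits. A match is a description of the sequence and not a site of binding.

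*Sox2*, which maintains neural progenitors and pluripotent cells, was at 17.3 FPKM in E8.5 NotoPs and 10.5 FPKM in E9.5 NotoPs. The trunk notochord values were 14.3 and 14.5 FPKM, and the MP values 0 and 3.35 FPKM. In culture it had 9.24 FPKM in NotoPdiff, 3.49 FPKM in MPdiff and 1.07 FPKM in NMPdiff cells. All 4 embryonic notochord libraries were thus above both MP libraries, and NotoPdiff was above the other cultured cells. At 17.3 FPKM, *Sox2* was higher than 82.9% of genes in E8.5 NotoPs, and at 1.07 FPKM higher than 52.5% in NMPdiff cells. Without replicates it cannot be said whether neighbouring levels differ, here or for the other 8 genes. The same-strand long RNA *Sox2ot*, within which *Sox2* lies, was listed at between 0 and 1.48 FPKM in the 9 libraries, with the highest level in E8.5 trunk notochord.

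*Sox2* (ENSMUSG00000074637.7, chr3:34650405-34652461 in mm10, plus strand) had a place bound by both factors within 100 kb. The T peak chr3:34665827-34666440 (fold enrichment 7.60, that of ChIP over background at the summit) and the Foxa2 peak chr3:34665863-34666372 (fold enrichment 9.91) overlap in an intron of *Sox2ot*, with summits 15677 and 15649 bp downstream of the *Sox2* start. A further T peak with a fold enrichment of 6.11 lies 14999 bp downstream, in an exon of *Sox2ot*. The window of the overlapping T peak, plus strand, chr3:34665932-34666231, is shown because both factors were called there and *Sox2* is the nearest protein-coding start. Capitals mark the forkhead letters and, on the opposite strand, the T-box core.
Sox2 shared T and Foxa2 peak: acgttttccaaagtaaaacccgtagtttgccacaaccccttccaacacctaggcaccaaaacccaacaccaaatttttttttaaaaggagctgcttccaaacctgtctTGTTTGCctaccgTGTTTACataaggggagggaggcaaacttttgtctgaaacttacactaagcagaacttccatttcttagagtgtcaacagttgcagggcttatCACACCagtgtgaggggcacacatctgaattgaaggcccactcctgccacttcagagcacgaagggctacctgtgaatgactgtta
The 2 forkhead matches begin 14 and 1 bases before the Foxa2 summit, and the core match lies 64 bases after the T summit. The Foxa2 window holds the same 3 matches.

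*Sox3*, a SoxB1 factor of early neural progenitors and caudal epiblast, had its highest level in E8.5 trunk notochord (7.46 FPKM), followed by E8.5 MPs (6.28 FPKM). NotoPs of E8.5 held 2.28 FPKM and those of E9.5 0.624 FPKM. It had 1.99 FPKM in E9.5 MPs, and was listed at 0 in E9.5 trunk notochord. In each of the 3 embryonic cell types the E8.5 level was above the E9.5 level. In culture *Sox3* had 2.67 FPKM in NMPdiff, 1.07 FPKM in MPdiff and 0.731 FPKM in NotoPdiff cells, an order opposite to that of *Sox2*, for which NMPdiff was lowest and NotoPdiff highest. *Sox1*, the SoxB1 factor most restricted to neural tissue, reached 1 FPKM only in E8.5 trunk notochord (3.27 FPKM). It was listed at 0 in NotoPs and MPs at E8.5, and the other 6 libraries lay between 0.0355 FPKM (NMPdiff) and 0.589 FPKM (E9.5 trunk notochord).

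*Irx3*, a homeobox factor of the intermediate neural tube that is also used in limb and heart, reached 64.6 FPKM in E8.5 and 53.6 FPKM in E9.5 trunk notochord. NotoPs of these stages held 18.5 and 19.2 FPKM, and MPs 6.63 FPKM and 0. In culture it had 3.57 FPKM in NMPdiff, 2.52 FPKM in MPdiff and 2.34 FPKM in NotoPdiff cells. The embryonic levels were ordered trunk notochord, NotoP, MP at both stages, and the 3 cultured libraries were close to each other. In E8.5 trunk notochord only 965 genes had a higher level, and in E9.5 trunk notochord 1230.

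*Irx3* (ENSMUSG00000031734.13, chr8:91798525-91802067, minus strand) had the T peak with the highest fold enrichment within 100 kb of any of the 9 genes, 17.9 at chr8:91792938-91793465, in an exon of *Gm36380* and 8848 bp downstream of the *Irx3* start. A T peak with a fold enrichment of 6.90 lay 3267 bp upstream, in an exon of the antisense gene *Irx3os*. Foxa2 peaks with a fold enrichment of 12.3 and 10.5 lay 26790 bp downstream, at chr8:91774936-91775553, and 8768 bp upstream, and neither overlapped a T peak. The window of the upstream Foxa2 peak is mostly a repeat of ac units and holds 0 forkhead matches. The window of this highest T peak, plus strand, chr8:91793069-91793368, is shown for its fold enrichment, the highest for T within 100 kb of these genes. The T-box core on the opposite strand is in capitals, 47 bases before the summit.
Irx3 T peak: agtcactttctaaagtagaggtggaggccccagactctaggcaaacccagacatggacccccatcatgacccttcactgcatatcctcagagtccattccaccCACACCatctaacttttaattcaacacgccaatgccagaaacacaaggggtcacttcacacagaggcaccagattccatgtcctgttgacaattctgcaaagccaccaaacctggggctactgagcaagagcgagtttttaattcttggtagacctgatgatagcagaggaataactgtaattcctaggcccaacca
The window of the strongest Foxa2 peak, plus strand, chr8:91775127-91775426, is shown because its forkhead matches and its core, in capitals, stand within a repeat of tg units.
Irx3 Foxa2 peak: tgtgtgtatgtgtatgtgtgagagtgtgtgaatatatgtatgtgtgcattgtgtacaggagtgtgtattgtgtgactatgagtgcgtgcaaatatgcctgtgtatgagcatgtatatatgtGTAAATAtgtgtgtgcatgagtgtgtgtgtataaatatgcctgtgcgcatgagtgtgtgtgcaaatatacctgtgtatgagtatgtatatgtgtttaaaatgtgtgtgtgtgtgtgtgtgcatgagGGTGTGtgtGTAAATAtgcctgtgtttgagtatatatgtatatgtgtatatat

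*Pax3*, a paired-box factor of the dorsal neural tube, neural crest and somites, had 9.90 FPKM in E8.5 trunk notochord and 1.41 FPKM at E9.5, 3.07 and 6.55 FPKM in the MP libraries of these stages, and 0.279 and 0.572 FPKM in the NotoP libraries. In culture it had 1.10 FPKM in MPdiff, 0.201 FPKM in NotoPdiff and 0.0212 FPKM in NMPdiff cells. MP cells were thus above NotoP cells at both stages and in culture, and E8.5 trunk notochord, which is labelled as notochord, was above all of them. *Pax3* (ENSMUSG00000004872.15, chr1:78101267-78197134, minus strand) had 3 T peaks and 2 Foxa2 peaks within 100 kb. The T peak with the highest fold enrichment (11.9, chr1:78127273-78127751) lies in an intron of *Pax3*, 69652 bp downstream of its start, and a T peak of 4.28 lies 987 bp upstream, the nearest to a start among the peaks counted here. The window of the intronic peak, plus strand, chr1:78127332-78127631, holds a forkhead match on the opposite strand 97 bases before the summit and a T-box core 18 bases after it, both in capitals, and is shown as binding inside a gene of the set.
Pax3 T peak: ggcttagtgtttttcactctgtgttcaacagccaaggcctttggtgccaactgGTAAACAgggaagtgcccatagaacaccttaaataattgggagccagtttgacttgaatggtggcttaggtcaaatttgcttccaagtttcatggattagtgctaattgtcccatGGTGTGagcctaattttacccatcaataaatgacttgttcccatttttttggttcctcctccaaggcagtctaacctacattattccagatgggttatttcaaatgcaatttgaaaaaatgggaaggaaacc

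*Nkx6-1*, a homeobox factor of the ventral neural tube, had 14.7 FPKM in E8.5 trunk notochord and 1.32 FPKM in E9.5 trunk notochord. The other 7 libraries lay between 0 (E9.5 NotoP and E8.5 MP) and 0.525 FPKM (E8.5 NotoP). One library thus carries the signal of this gene. *Olig2*, a factor of motor neuron and oligodendrocyte progenitors, had 4.32 FPKM in NMPdiff and 1.06 FPKM in E8.5 MP cells, 0.0799 FPKM in NotoPdiff cells, and was listed at 0 in the other 6 libraries, trunk notochord included. Its neighbour and relative *Olig1* had 10.7 FPKM in NMPdiff, 0.179 FPKM in NotoPdiff cells and 0 in the other 7.

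*Pax6*, a factor of the intermediate neural tube, was above 1 FPKM only in E8.5 NotoPs (1.10 FPKM). It had 0.921 and 0.733 FPKM in MPs at E8.5 and E9.5, between 0.133 and 0.271 FPKM in culture, and was listed at 0 in both trunk notochord libraries and in E9.5 NotoPs. The antisense gene *Pax6os1*, which overlaps it, was at 0 in all 9 libraries. *Neurog2*, a proneural factor, reached 0.851 FPKM in E8.5 NotoPs, 0.0323 FPKM in NMPdiff and 0.0659 FPKM in NotoPdiff cells, and was listed at 0 in the other 6. No library thus held the neural tube factor *Pax6* or the proneural factor *Neurog2* at more than 1.10 FPKM. The table holds no counts, and the lowest level that each library could show was not estimated.

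To compare libraries, the log2 ratio of FPKM + 1 was taken, a scale that understates the change of low genes, and 3-fold was the limit for a difference to be counted. Against a library listed at 0 no fold is given. Of the 10 comparisons, 7 had at least 1 of the 9 genes past 3-fold, with 16 such differences in all. With 5 FPKM added in place of 1, 4 of them were past 3-fold (*Sox2* and *Irx3* in NotoPs over MPs, at E8.5 and E9.5 in turn, and *Nkx6-1* in E8.5 trunk notochord over E8.5 NotoPs and in trunk notochord E9.5 over E8.5), and with 0.1 FPKM added 41 differences were.

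**Figure D2:**
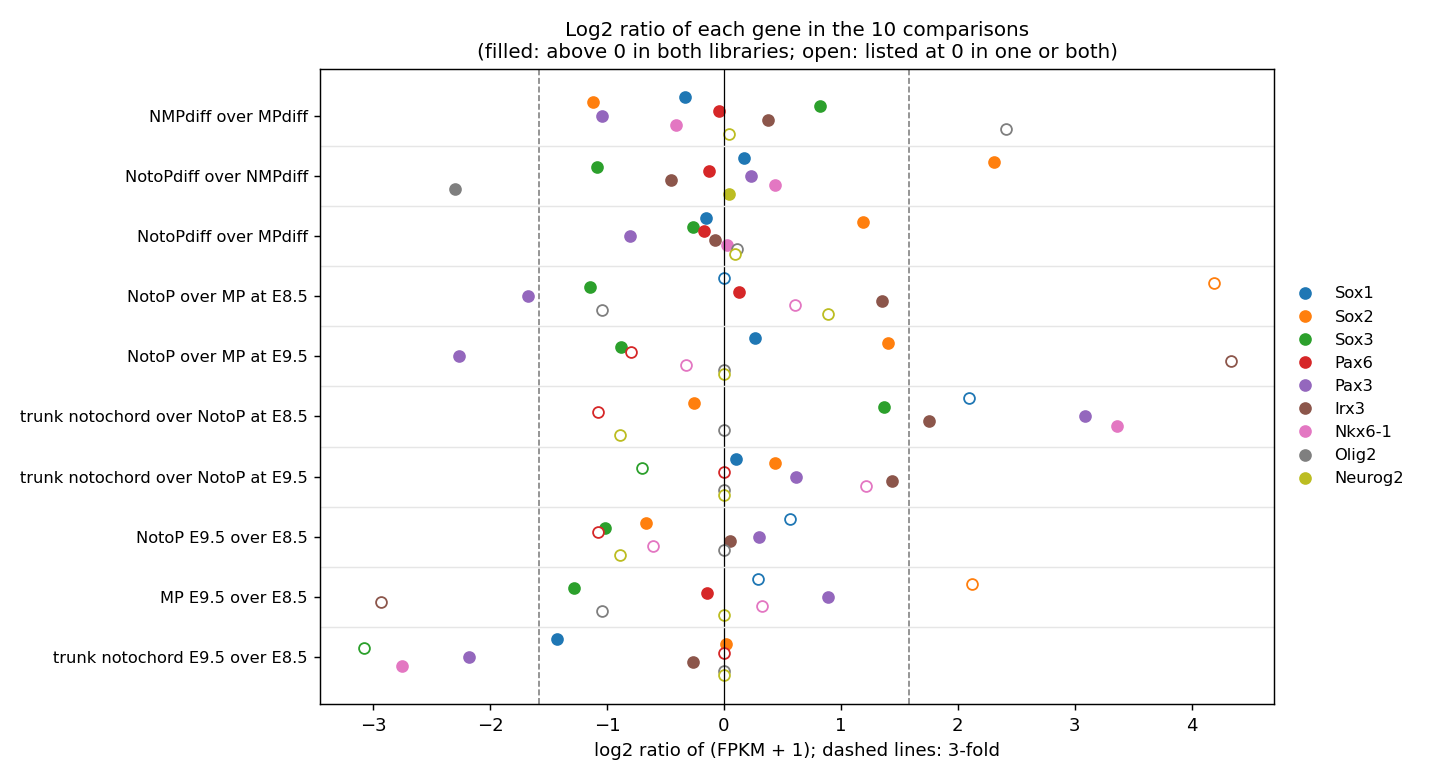
Each point is 1 gene's log2 ratio of (FPKM + 1) (horizontal axis) in 1 of the 10 comparisons (vertical axis), filled where both libraries are above 0 and open where the gene is listed at 0 in one or both, with dashed lines at 3-fold. In trunk notochord over NotoP at E8.5, 4 genes lie to the right of the 3-fold line and 0 lie beyond the 3-fold line on the left; in trunk notochord E9.5 over E8.5, 3 lie to the left.

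NMPdiff cells are, by their label, the cultured cells with a neural path still open to them. NMPdiff over MPdiff cells had 1 of the 9 genes past 3-fold higher, *Olig2* (4.32 against 0 FPKM), and 0 lower, where 1.48% of all 23983 genes were past 3-fold higher and 0.901% lower. The median log2 ratio of the 9 genes was -0.04, and that of all genes 0. *Sox2* and *Pax3* were lower in NMPdiff cells, with log2 ratios of -1.12 and -1.04, and *Sox3* was higher, with 0.82, all within 3-fold. The NMP marker T was at 406 FPKM in NMPdiff cells and *Nkx1-2*, another NMP marker, at 41.5 FPKM, while *Sox2*, which defines NMPs together with T, had its lowest cultured level there. In the NMP and caudal epiblast list, 3 of 12 genes were past 3-fold higher than in MPdiff cells (T, *Nkx1-2* and *Wnt3a*) and 1 lower (*Cdx2*), with a median log2 ratio of 0.93.

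Of 22 other neural patterning genes, 4 were past 3-fold higher in NMPdiff than in MPdiff cells and 1 lower, with a median of 0. Those higher were *Olig1* (10.7 against 0 FPKM), *Otx2* (13.7 against 0.701 FPKM, log2 ratio 3.12), *Zic2* (54.6 against 8.37 FPKM, 2.57) and *Pou3f1* (6.86 against 0.693 FPKM), of which *Otx2*, *Zic2* and *Pou3f1* are known from epiblast as well as from neural tissue. The one lower was *Msx1*, a dorsal factor. Of 18 neurogenesis genes, *Lhx1* (37.0 against 8.36 FPKM) and *Tubb3* (7.59 against 1.16 FPKM), a neuronal tubulin, were higher, and *Dll1* and *Hes5* of the Notch pathway lower; the proneural genes *Neurog1*, *Atoh1*, *Neurod1* and *Neurod4* were at or under 0.316 FPKM in all 3 cultured libraries. Of 10 genes of neural progenitor structure, *Nes* (40.7 against 4.43 FPKM), which encodes nestin, was higher and *Crabp1* (7.53 against 154 FPKM) lower. Pluripotency genes differed in the same comparison. Of 10, 4 were past 3-fold higher in NMPdiff cells (*Pou5f1* 269 against 13.1 FPKM, and *Nanog*, *Utf1* and *Dppa5a*), their sum was 323 FPKM in NMPdiff, 17.7 FPKM in NotoPdiff and 16.5 FPKM in MPdiff cells, and *Esrrb* was at 0.290 FPKM or less. Their part in the levels of *Sox2*, *Otx2* and the other shared genes was not tested.

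With Dox, NotoPdiff over NMPdiff cells had *Sox2* past 3-fold higher (9.24 against 1.07 FPKM, log2 ratio 2.31) and *Olig2* lower (0.0799 against 4.32 FPKM, -2.30), so 1 of 9 in each direction, with 1.31% of all genes higher and 0.796% lower. These libraries differ by a day of culture and by the Noto gate of the sort as well as by Dox. The median log2 ratio of the 9 genes was 0.05. In the neural patterning list *Sox21*, a SoxB2 factor, was higher (3.27 against 0.160 FPKM) and *Olig1*, *Otx2*, *Pou3f1* and *Zic2* were lower. Against MPdiff cells of the same day, which differ by Dox and by the Noto gate, 0 of the 9 genes were past 3-fold in NotoPdiff cells, with 1.55% of all genes higher and 0.442% lower. *Sox2* had the largest ratio (log2 1.19), *Pax3* the lowest (-0.81), and the median was -0.07. *Sox21* was past 3-fold higher there too, against 0.114 FPKM. Of 12 floor plate genes, a list that shares *Shh* and Foxa2 with the notochord list, 4 were higher in NotoPdiff than in MPdiff cells (Foxa2, *Shh*, *Foxj1* and *Ntn1*) and 0 lower, and the floor plate gene *Ferd3l* was listed at 0. FPKM of Foxa2 includes the Dox-induced transgene. All 12 notochord genes were higher in NotoPdiff than in MPdiff cells, and 4 of 7 gut endoderm genes were too (*Cldn6* 126 against 3.38 FPKM, *Trh* 71.8 against 13.9 FPKM, *Sox17* and *Epcam*).

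In the embryo, NotoPs over MPs gave 1 gene higher and 1 lower at each stage. At E8.5, *Sox2* was past 3-fold higher (17.3 against 0 FPKM) and *Pax3* lower (0.279 against 3.07 FPKM, log2 ratio -1.67), with 8.83% of all genes higher and 4.02% lower. At E9.5, *Irx3* was past 3-fold higher (19.2 against 0 FPKM) and *Pax3* lower (0.572 against 6.55 FPKM, -2.26), with 2.63% and 1.11%. *Pax3* was therefore the gene past 3-fold at both stages, and it is also the one that does not depend on a value listed at 0. *Sox2* and *Irx3* each lay on the same side at the other stage, with log2 ratios of 1.40 at E9.5 and 1.35 at E8.5, within 3-fold. Leaving out the E8.5 MP library removes the E8.5 comparison, and with it the difference of *Sox2* and the E8.5 difference of *Pax3*. *Sox3* was lower in NotoPs at both stages, with log2 ratios of -1.15 and -0.88, also within 3-fold. The median of the 9 genes was 0.13 at E8.5 and 0 at E9.5.

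Genes of mesoderm and of other neural lists were read beside these. Of genes that average 1 FPKM or more over both libraries, 19.4% were past 3-fold higher in NotoPs and 8.81% lower at E8.5. At E9.5 these shares were 5.64% and 2.38%. Of 15 paraxial mesoderm genes, 4 were past 3-fold lower in NotoPs and 1 higher at E8.5, and 6 lower and 0 higher at E9.5, with medians of -0.08 and -1.24. *Zic2*, a neural and mesodermal factor, was past 3-fold lower in NotoPs at both stages (0.954 against 15.7 FPKM, and 0.868 against 5.09 FPKM). Of 22 neural patterning genes 0 were higher at either stage, and those lower were *Zic2* and *Pou3f1* at E8.5 and *Zic2* at E9.5. Of 18 neurogenesis genes, 2 were higher at E8.5 (*Elavl4* and *Stmn2*) and 1 lower (*Isl1*), and 0 higher and 2 lower at E9.5 (*Hes5* and *Dll1*). Of 10 genes of progenitor structure, 4 were higher at E8.5 (*Nes*, *Vim*, *Sox4* and *Ptn*) and 1 lower (*Crabp1*), with a median log2 ratio of 1.13. At E9.5 the counts for this list were 0 and 2 (*Crabp1* and *Ncam1*), with a median of -0.08. Of the 12 floor plate genes, 6 were higher and 0 lower at E8.5 (*Shh*, Foxa2, *Sulf1*, *Foxj1*, *Spon1* and *Lmx1b*) and 2 higher at E9.5 (*Shh* and Foxa2). The neural crest list had *Sox9*, which is also a gene of notochord and cartilage, higher at both stages (51.9 and 30.0 FPKM against 0 and 0.662 FPKM), and *Snai2* lower at E8.5 (0 against 7.74 FPKM). Of its other genes, *Ets1* was at 1.12 and 2.82 FPKM in NotoPs and at 0 and 3.71 FPKM in MPs, and *Sox10*, *Foxd3*, *Tfap2a*, *Tfap2b* and *Pax7* were at 0.214 FPKM or less in both cell types.

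Trunk notochord was compared with NotoPs of the caudal end at the same stage label, which does not follow cells from one region to the other. At E8.5, 4 of the 9 genes were past 3-fold higher in trunk notochord and 0 lower, with 4.58% of all genes higher and 4.17% lower (9.37% and 8.53% of 11718 genes that average 1 FPKM or more over both libraries, as 6 of the 9 genes did). *Nkx6-1* (14.7 against 0.525 FPKM) had a log2 ratio of 3.36, *Pax3* (9.90 against 0.279 FPKM) 3.09 and *Irx3* (64.6 against 18.5 FPKM) 1.75, and *Sox1* was at 3.27 against 0 FPKM. *Sox3* lay within 3-fold (log2 ratio 1.36), and *Sox2* did too (-0.25). In the neural tube *Pax3* is a dorsal, *Irx3* an intermediate and *Nkx6-1* a ventral factor, and *Sox1* is a general progenitor factor. The median log2 ratio of the 9 genes was 1.36 and that of all genes 0. At E9.5, 0 of the 9 genes were past 3-fold, with 4.33% of all genes higher and 5.17% lower. *Irx3* (53.6 against 19.2 FPKM) came nearest, with a log2 ratio of 1.44, and *Nkx6-1* had 1.32 against 0 FPKM. The difference between the stages was not tested.

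The markers of other tissues in the trunk libraries were mixed. In E8.5 trunk notochord, *Pax6*, *Olig2* and *Neurog2* were listed at 0, as were *Pax7*, *Dbx1*, *Dbx2* and *Neurog1*, while *Zic2* (11.1 FPKM), *Nkx2-9* (8.76 FPKM), a floor plate factor, and *Sox21* (5.21 FPKM) were present. The 22 neural patterning genes summed to 38.0 FPKM against 13.9 FPKM in E8.5 NotoPs, and 8 of 22 against 5 of 22 were at 1 FPKM or more. Of them, 2 were past 3-fold higher (*Zic2* and *Nkx2-9*) and 1 lower (*Msx1*). The same library held 31.0 FPKM of *Hhex*, 19.1 FPKM of *Trh* and 7.58 FPKM of *Cer1*, anterior mesendoderm and endoderm genes that were the 3 of 7 gut endoderm genes past 3-fold higher than in NotoPs, and 11.8 FPKM of the somite gene *Tcf15*, the 1 of 15 paraxial mesoderm genes so. In the same comparison 1 of 7 gut endoderm genes was past 3-fold lower (*Sox17*, 0 against 3.58 FPKM). So were 3 of 15 paraxial mesoderm genes, *Hes7* (0 against 74.3 FPKM), *Tbx6* (0 against 44.0 FPKM) and *Msgn1* (0 against 20.0 FPKM). The list sums of gut endoderm genes were 117 FPKM in E8.5 trunk notochord and 3.42 to 80.3 FPKM in the other embryonic libraries. The part of cells that carry *Hhex*, *Trh*, *Cer1* or *Tcf15* in the levels of *Nkx6-1*, *Pax3*, *Irx3* and *Sox1* was not tested.

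In E9.5 trunk notochord, the neural crest genes *Sox10* (26.3 FPKM) and *Tfap2a* (4.15 FPKM) and the sclerotome gene *Pax1* (13.5 FPKM) were present, against 0 FPKM each in E9.5 NotoPs. The rest of the neural crest list was mixed in this trunk library. *Foxd3*, *Pax7* and *Snai2* were listed at 0 and *Tfap2b* was at 0.386 FPKM, while *Ets1* was at 6.93 FPKM and *Sox9* at 92.9 FPKM. The paraxial mesoderm list, which holds *Pax1*, had 2 of 15 genes past 3-fold higher than in E9.5 NotoPs (*Pax1* and *Pcdh8*). It had 3 lower, *Msgn1*, *Tbx6* and *Hes7*, each listed at 0 in E9.5 trunk notochord. Of 22 neural patterning genes, 3 were past 3-fold higher than in NotoPs and 0 lower: *Irx5* (36.6 against 3.22 FPKM, log2 ratio 3.16), which lies in the same gene cluster as *Irx3*, *Nkx2-2* (7.02 against 0.629 FPKM), a ventral factor, and *Pou3f3* (6.21 against 0 FPKM). Of the 12 floor plate genes, 5 were higher and 0 lower at E9.5, with *Slit1* at 45.8 against 1.60 FPKM and *Shh* at 607 against 178 FPKM, and 2 were higher and 1 lower at E8.5, with *Slit1* at 20.6 against 0.180 FPKM. The floor plate and neural patterning lists share *Nkx2-2* and *Nkx2-9*. *Nkx2-2* at E9.5 and *Nkx2-9* at E8.5 were thus counted as higher in both lists. The floor plate factor *Ferd3l* was at 0 in all 6 embryonic libraries. Of 8 neural crest genes, 2 were higher in trunk notochord at E8.5 (*Sox10* and *Ets1*) and 3 at E9.5 (*Sox10*, *Tfap2a* and *Sox9*), and 0 were lower. Of 18 neurogenesis genes, 1 was higher and 2 lower at E8.5, and 3 were higher and 3 lower at E9.5, with *Dll1* and *Dll3* lower at both stages. Of 10 genes of progenitor structure, *Fabp7* was higher at E8.5 and *Crabp1* at E9.5. Of the 12 NMP and caudal epiblast genes, 7 of the E8.5 and 6 of the E9.5 ratios lay past 3-fold lower in trunk notochord, with 0 higher at either stage; *Cdx4*, *Fgf8* and *Wnt3a* were at 0 in both trunk libraries.

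**Figure D3:**
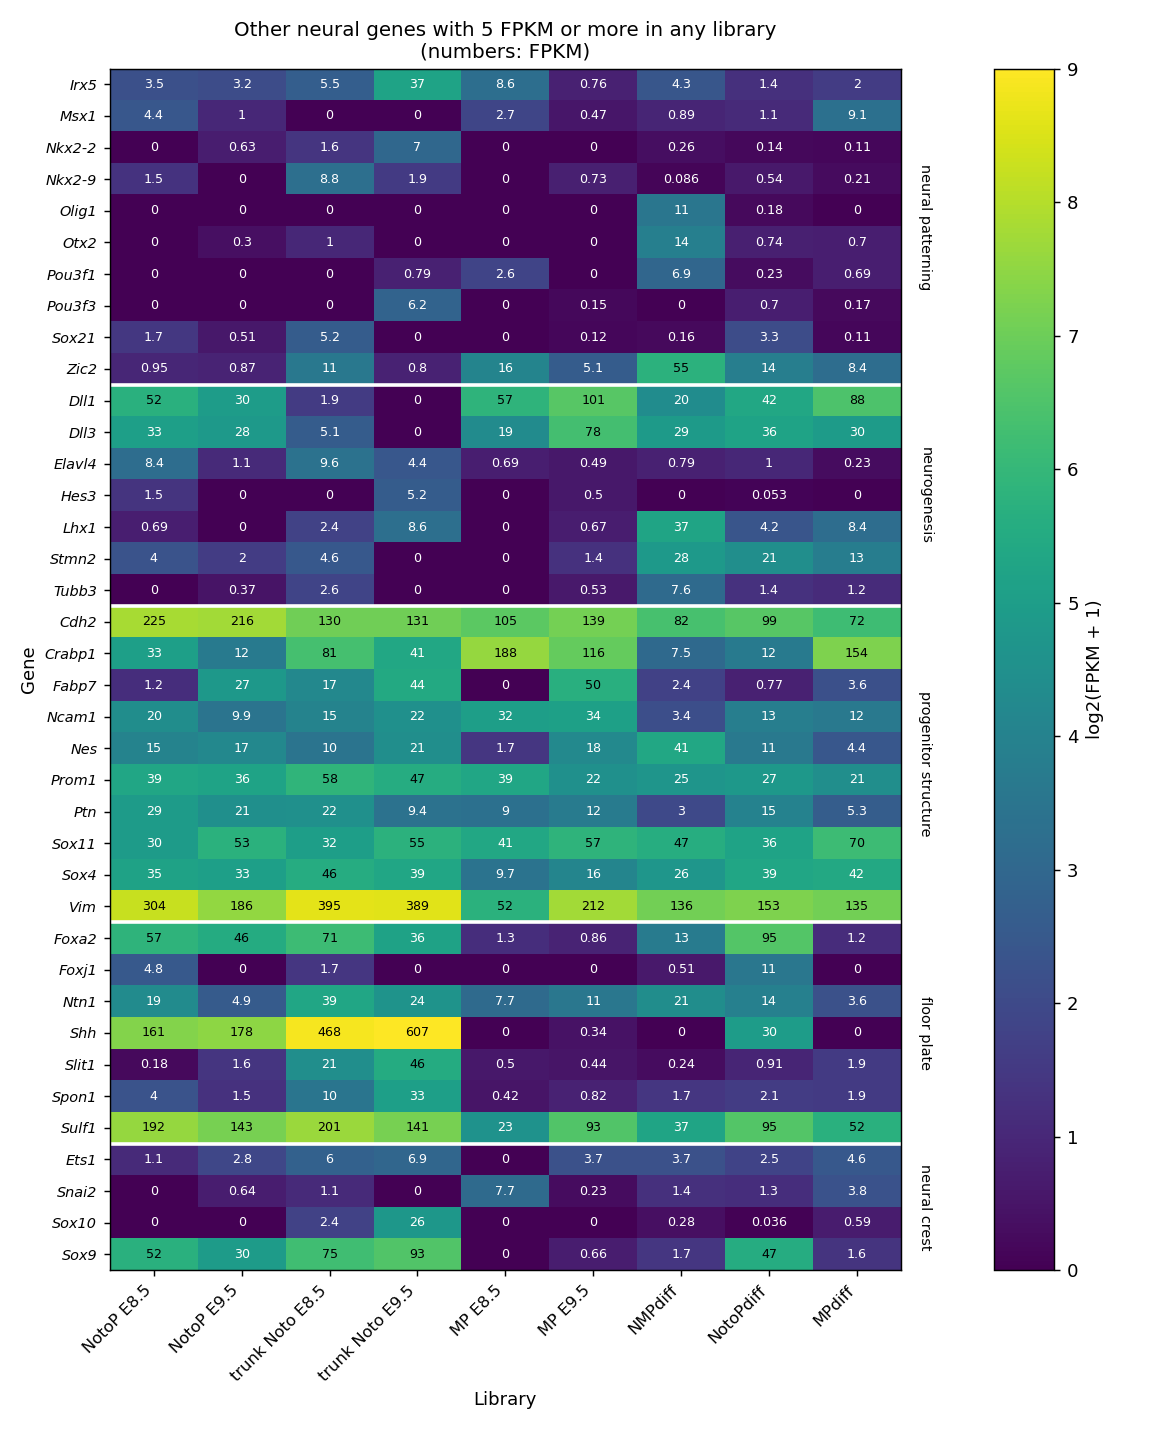
Colour gives log2(FPKM + 1) and the numbers FPKM for the genes of 5 lists (rows, grouped by list) that reach 5 FPKM in any library (columns), namely 10 of neural patterning, 7 of neurogenesis, 10 of progenitor structure, 7 of floor plate and 4 of neural crest. The progenitor structure genes Vim and Cdh2 are at 52.4 FPKM or more in every library, whereas Olig1 and Otx2 stand out in NMPdiff cells and Sox10 and Irx5 in E9.5 trunk notochord.

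Between E8.5 and E9.5, NotoPs had 0 of the 9 genes past 3-fold, with 2.3% of all genes higher at E9.5 and 1.99% lower. *Sox3* (log2 ratio -1.02) and *Sox2* (-0.67) were lower at E9.5, and *Irx3* was nearly equal (0.05). In MPs, *Sox2* was past 3-fold higher at E9.5 (3.35 against 0 FPKM) and *Irx3* lower (0 against 6.63 FPKM), with 6.02% of all genes higher and 3.23% lower. Both rest on a value listed at 0, and the *Sox2* difference on the library with the most such values. In trunk notochord, 3 of the 9 genes were past 3-fold lower at E9.5 and 0 higher, with 5.79% of all genes lower and 4.28% higher. *Nkx6-1* was at 1.32 against 14.7 FPKM (log2 ratio -2.76), *Pax3* at 1.41 against 9.90 FPKM (-2.18) and *Sox3* at 0 against 7.46 FPKM. *Sox1* was lower within 3-fold (-1.43), and *Sox2* (0.02) and *Irx3* (-0.26) were nearly equal. Over the same step, 4 of 22 neural patterning genes were past 3-fold higher (*Pou3f3*, *Irx5*, *Zic1* and *Nkx2-2*) and 4 lower (*Zic2*, *Sox21*, *Six3* and *Nkx2-9*), and *Hhex* was at 1.34 against 31.0 FPKM and *Tcf15* at 0 against 11.8 FPKM. Past 3-fold, 0 of 7 gut endoderm genes were higher and 4 lower. In the paraxial mesoderm list, 1 of 15 genes was higher (*Pax1*, 13.5 against 0 FPKM) and 2 were lower (*Tcf15* and *Osr1*). The neural crest list had 2 of 8 genes higher (*Sox10*, 26.3 against 2.43 FPKM, and *Tfap2a*, 4.15 against 0 FPKM) and 0 lower. The part of cells that carry any of these markers in the differences of *Nkx6-1*, *Pax3* and *Sox3* was not tested.

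Binding near the 9 genes was read next, a measure their choice did not use. Within 100 kb of the gene start, 6 of the 9 genes had a T peak, 8 had a Foxa2 peak and 2 had overlapping peaks of both. Among 21938 protein-coding genes the shares were 43.6%, 72.6% and 8.93%. The 9 genes had 10 T and 18 Foxa2 peaks there, and for 22 of these 28 peaks, around 7 genes, the gene itself was the nearest protein-coding start. Within 5 kb of the start, *Pax3* and *Irx3* had a T peak and 0 of the 9 genes a Foxa2 peak, where 5.17% and 8.43% of protein-coding genes had one. The highest fold enrichment of a Foxa2 peak was 12.9, 74457 bp upstream of *Nkx6-1*. Its window is mostly a repeat of tg units and holds 0 forkhead matches.

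**Figure D4:**
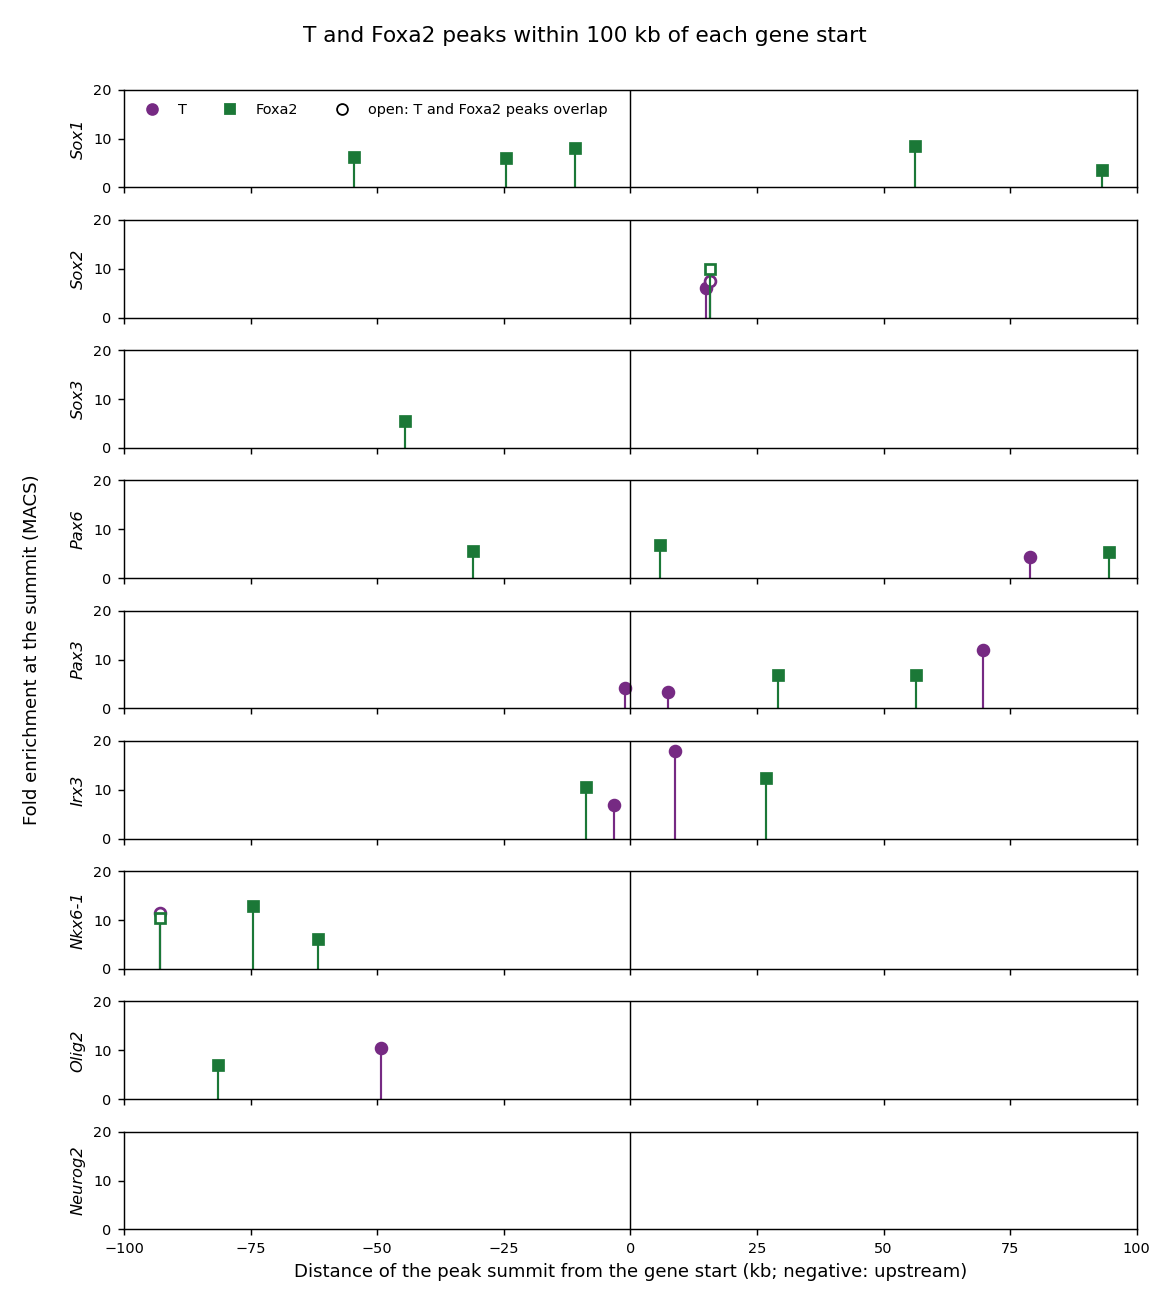
Each stem is a peak within 100 kb of a gene start, at its distance from the start in kb (horizontal axis, negative upstream) and with its fold enrichment at the summit as called by MACS (vertical axis, from 0), with T as purple circles, Foxa2 as green squares and open symbols where peaks of both overlap. Open symbols stand near Sox2 and Nkx6-1, the highest stem is the T peak of Irx3 at 17.9, Sox1 has 5 Foxa2 and no T peaks, and Neurog2 has none.

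*Sox1* had 5 Foxa2 peaks and 0 T peaks within 100 kb, with a fold enrichment of 3.50 to 8.49, and 4 of the 5 were nearest to *Sox1*. *Sox3* had 1 Foxa2 peak (5.60, 44585 bp upstream) and 0 T peaks. *Pax6* had 1 T peak (4.25, 78872 bp downstream, in an intron of *Elp4*) and 3 Foxa2 peaks, the highest of which (6.77) lies in its own intron 5778 bp downstream of the start. *Olig2*, the one gene of the set that was highest in NMPdiff cells, had a T peak of 10.5, 49341 bp upstream, and a Foxa2 peak of 7.01, 81416 bp upstream, while the binding data come from NotoPdiff-enriched cultures, in which sorted cells had 0.0799 FPKM of *Olig2*. This Foxa2 peak lies in an intron of *Gm41492*, and its nearest protein-coding start was that of *4932438H23Rik*. *Neurog2* had no peak of either factor within 100 kb, and its nearest Foxa2 peak lay 103391 bp away. The median fold enrichment was 7.45 over all 6871 T peaks on the assembled chromosomes and 7.20 over 22680 Foxa2 peaks.

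*Nkx6-1* (ENSMUSG00000035187.10, chr5:101658139-101664996, minus strand) had 1 T and 3 Foxa2 peaks within 100 kb, but another protein-coding gene, *Cds1*, was nearer to all 4. The T peak chr5:101757624-101758103 (fold enrichment 11.5) overlaps a Foxa2 peak of 10.4, with its summit 92847 bp upstream of *Nkx6-1*. Its window, plus strand, chr5:101757693-101757992, is shown as a place bound by both factors that holds none of the letters searched for, in contrast to the one near *Sox2*.
Nkx6-1 shared T and Foxa2 peak: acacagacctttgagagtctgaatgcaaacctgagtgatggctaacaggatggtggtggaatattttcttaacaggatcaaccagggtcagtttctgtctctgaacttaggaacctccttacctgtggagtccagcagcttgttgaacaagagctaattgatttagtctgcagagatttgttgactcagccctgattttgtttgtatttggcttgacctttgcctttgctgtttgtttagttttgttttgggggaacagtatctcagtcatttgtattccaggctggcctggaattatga
Over all 10 T windows near the 9 genes, 0 held the T-box site, 5 its core and 4 forkhead letters. Of the 18 Foxa2 windows, 0 held the site, 3 the core and 9 forkhead letters. Peaks of 1 gene are not independent of each other, and no statement about the 9 genes against others was drawn from these counts.

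Last, genes with a like pattern were listed for the 5 genes that reach 5 FPKM in any library, by the Pearson correlation of log2(FPKM + 1) over the 9 libraries. The points share a table and differ in depth, instrument and stage, and such a correlation over 9 libraries is a description. For *Sox2*, the 3 most alike genes were *Zfand3* (r of 0.984), *Plxnb1* (0.982) and *Adcy6* (0.981), all lowest in E8.5 MPs. For *Nkx6-1* they were *Vnn1* (0.981), *Stxbp5l* (0.975) and *Kif9* (0.975), which, like it, had their highest level in E8.5 trunk notochord (11.8, 11.6 and 6.46 FPKM). For *Irx3* they were *Kdm5a* (0.950), *Kif21a* (0.949) and *Plet1* (0.949), the last with 17.9 and 14.2 FPKM in trunk notochord and 9.20 and 9.42 FPKM in NotoPs. For *Pax3* they were *Arhgap5* (0.929), *Agpat9* (0.907) and *Nck1* (0.890), and for *Sox3* *Pole2* (0.927), *Ppie* (0.926) and *Ndufa4* (0.925). None of these 15 genes is another of the 9.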

How the data were processed

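The 9 genes and all gene lists were chosen with earlier results of these data known. RNA-seq reads were mapped to mm10 by the authors (TopHat2 2.1.1, Bowtie 1.2.2, RefSeq models, stranded), and copies of a molecule were removed by molecular identifiers. The deposited FPKM values come from Cufflinks 2.2.1, which corrects for bias and splits multiply mapped reads. Each of the 9 columns was mapped to a sample, leaving 0 unmapped. The E8.5 MP library was made from the fewest cells of the embryonic libraries. FPKM keeps no counts, so the counts behind each value are unknown and no interval is given. For ChIP-seq (Bowtie 1.3.1, MACS3 3.0.0b1), the authors called peaks on each library at a q cutoff of 0.1; the control library is not given in the sources used here. The deposited peak lists hold a score, the fold enrichment (a ratio), −log10 of p and q, and the other columns of position and summit offset; the score and the p-values were not used.

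Differences are log2 ratios of FPKM + 1 at a 3-fold limit, without a test, since there is 1 library a condition. The rule was also run on simulated data, with changes placed only in genes that average 5 FPKM or more. That run does not bear on genes at lower levels. Peaks were tied to a gene when the summit lay within 100 kb of its start in GENCODE annotation of mm10, and counted as shared when they overlapped by at least 1 bp. Peak windows of 300 bases were read from the GRCm38 reference genome, in which 8 of 8 RefSeq promoter entries of 7 of the 9 genes were identical to the genome. Named genes were all 9 members, up to 5 genes per list by highest FPKM and up to 5 by largest change, overlapping genes, the 3 most alike genes, and the strongest peaks; markers named as absent or at 0, and further list genes and peaks past these numbers, were chosen after their values were seen. The 12 lists were neural patterning, neurogenesis, neural progenitor structure, floor plate, neural crest, NMP and caudal epiblast, notochord, paraxial mesoderm, gut endoderm, blood and endothelium, pluripotency and housekeeping, and 1 of their genes was not found in the table. The 63 alternatives changed the pseudocount, the fold, the FPKM minimum, the scaling, the distance, the q cutoff and the overlap. Software was pandas 2.3.3, numpy 2.4.6, scipy 1.17.1 and matplotlib 3.10.9 under Python 3.11.15.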

Additional observations from a re-analysis of the deposited data

Results flagged for a closer look

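*Pax3* went in opposite directions between E8.5 and E9.5 in 2 embryonic cell types. In trunk notochord it was lower at E9.5 (1.41 against 9.90 FPKM, log2 ratio -2.18), and in MPs it was higher (6.55 against 3.07 FPKM, log2 ratio 0.89, within 3-fold). Each value comes from 1 library, and the difference between the cell types was not tested.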

How the results depend on the processing

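No paired analysis was possible because each condition has 1 library and no result comes from a test; no library could be left out of a comparison for the same reason. Of 63 alternatives to the counts of genes past 3-fold, of levels and of peaks, 40 stayed within 1.5 times the main count and 23 did not. With 0.1 FPKM added, 3 genes were past 3-fold in NMPdiff over MPdiff, 1 in NotoPdiff over MPdiff, 5 in NotoP over MP at either stage, 7 in trunk notochord over NotoP at E8.5 with 2 a stage later, and, for E9.5 over E8.5, 5 in NotoPs and 6 in MPs. With 5 FPKM added, 0 were past it in NMPdiff over MPdiff, NotoPdiff over NMPdiff and MP E9.5 over E8.5, and 1 in NotoP over MP at each stage, in trunk notochord over NotoP at E8.5 and in trunk notochord E9.5 over E8.5. At a limit of 2-fold the counts were 3 in NMPdiff over MPdiff, 1 in NotoPdiff over MPdiff, 5 in NotoP over MP at E8.5, 2 in trunk notochord over NotoP at E9.5, 2 in NotoP E9.5 over E8.5 and 4 in MP E9.5 over E8.5. Most of the 81 levels lie under 5 FPKM, the largest value added. Why each count moved was not tested. At 5 FPKM or more, 15 of the 81 values remained of 33, and within 50 kb 1 gene had a shared peak. Rescaling the libraries (factors 1.00 to 1.03 over 7783 genes) left 16 differences. Of the 40, 10 left out pairs with a mean under 1 FPKM, which by construction cannot remove a difference counted on this scale and tests nothing. Of 270 alternatives to single log2 ratios, 37 crossed the 3-fold limit and 0 changed sign past it. Without replicates or counts, no error of any single level is known.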

Other observations

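The E9.5 trunk notochord held *Irx5* at 36.6 FPKM beside *Irx3* at 53.6 FPKM, whereas E8.5 trunk notochord held 5.49 and 64.6 FPKM. NotoPs held 3.53 and 18.5 FPKM at E8.5 and 3.22 and 19.2 FPKM at E9.5. *Irx5* thus differed between the stages of trunk notochord (log2 ratio 2.53) where *Irx3* was nearly equal (-0.26), and both values come from 1 library each.

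Beyond 100 kb, T and Foxa2 peaks overlapped at further places around *Irx3*, 171927 bp upstream (T fold enrichment 11.3) and 225550 bp downstream in an intron of *Fto* (16.2), with *Irx3* as the nearest protein-coding start of both. A T peak 125769 bp downstream of the *Pax3* start, with *Pax3* as the nearest protein-coding start, had a fold enrichment of 18.0 and overlapped no Foxa2 peak. These places were chosen after their values were seen.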
